A study of Mus musculus with 9 samples.

Results

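The lysyl oxidase family of the mouse has 5 genes, Lox, Loxl1, Loxl2, Loxl3 and Loxl4, and its mRNA levels were followed in embryonic stem (ES) cells that lack Dgcr8 or Dicer. Members were found by the gene symbols that the array's annotation gives to each transcript cluster, the group of probes that reads 1 transcript. The 5 genes were read by 6 of the 23000 transcript clusters counted, because Loxl4 has 2 clusters. Loxl2 was read only by a cluster that is also annotated to the predicted gene Gm21451, so that cluster is called Loxl2/Gm21451 and its values cannot be given to Loxl2 alone. The family was chosen by the high level of Loxl4 in Dicer KO cells, so for all 6 clusters the values of Dicer KO against WT are given as a description, without a test.

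Total RNA was hybridised to 9 Affymetrix mouse gene arrays, 3 each for Dgcr8 KO, Dicer KO and wild-type (WT) ES cells. Drosha and its RNA-binding partner Dgcr8 release miRNA hairpins from primary transcripts, and Dicer trims the hairpins to mature miRNAs, so miRNAs that need both steps are lost in either knockout. The WT cells were the v6.5 ES line, and each knockout ES line carries the loss of its gene and no treatment. How many clones stand behind each genotype is not given in the sources used here. The methods call the 3 arrays of a genotype biological replicates while the labels speak of triplicate plates, so p-values may measure only the spread between cultures of 1 line. Each knockout read lowest on the gene that its label names. Dgcr8 read 8.74, 8.96 and 8.86 in Dgcr8 KO cells, against 9.98, 9.99 and 9.99 in Dicer KO cells and 9.76, 9.81 and 9.82 in WT cells, and Dicer1 read 10.40, 10.47 and 10.39 in Dgcr8 KO cells, 8.33, 8.43 and 8.32 in Dicer KO cells and 10.18, 10.18 and 10.23 in WT cells.

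Lysyl oxidases are secreted, copper-dependent amine oxidases. They oxidise lysine side chains of collagen and elastin to reactive aldehydes, which then condense into the covalent crosslinks that give matrix its strength. Lox and Loxl1 are made with a propeptide that Bmp1-type proteases remove, and Loxl1 is known for its part in elastic fibre upkeep. Loxl2, Loxl3 and Loxl4 carry scavenger receptor cysteine-rich domains in its place, and Loxl2 is known to act on the type IV collagen of basement membranes.

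The promoter of Loxl4 is shown because no other member of the family was among the promoter sequences used here. The window holds 250 bases before to 50 bases after the annotated start on the minus strand, at chr19:42612757-42613056 of GRCm38.p6 (RefSeq), and capitals mark GC boxes, searched as GGGCGG on both strands.
Loxl4 promoter: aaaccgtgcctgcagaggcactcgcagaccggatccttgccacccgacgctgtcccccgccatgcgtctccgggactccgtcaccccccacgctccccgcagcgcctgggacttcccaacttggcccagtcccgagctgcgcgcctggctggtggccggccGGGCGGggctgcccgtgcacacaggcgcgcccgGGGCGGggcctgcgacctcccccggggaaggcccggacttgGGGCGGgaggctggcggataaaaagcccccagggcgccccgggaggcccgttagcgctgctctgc
The window held 3 GC boxes, all on the gene's own strand, starting 89, 56 and 15 bases before the start, and 35.7% of 32851 mouse promoter windows of this length held at least 1. Its GC content was 75.0%, above that of 96.1% of those windows, whose median was 52.7%. The core of the hypoxia response element, searched as ACGTG or GCGTG on both strands, matched once, 162 bases before the start on the opposite strand, and 43.8% of windows held a match. The letters TATAAA had 0 matches, against a match in 13.6% of windows.

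Both Loxl4 clusters put the genotypes in 1 order, with Dicer KO cells highest and WT cells lowest. On the 10467768 cluster its log2 levels were 7.28, 7.28 and 7.32 on the Dgcr8 KO arrays, 10.01, 10.00 and 9.93 on the Dicer KO arrays and 6.05, 6.01 and 6.13 on the WT arrays. On the 10467766 cluster they were 5.85, 5.89 and 5.85 in Dgcr8 KO cells, 8.28, 8.48 and 8.26 in Dicer KO cells and 4.89, 5.27 and 4.89 in WT cells. Each array of Dicer KO cells was above each array of Dgcr8 KO cells, and each of these was above each WT array. Levels of the clusters are not set against each other, because probes differ in brightness.

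Loxl4 rose in Dgcr8 KO cells relative to WT on both clusters, in a contrast that did not select it but that uses the same WT arrays. The 10467768 cluster averaged 7.30 ± 0.0247 in Dgcr8 KO cells and 6.07 ± 0.0613 in WT cells (SD, n = 3 each), a log2 ratio of 1.23 with a 95% interval of 1.12 to 1.34, or 2.35-fold (limma adjusted p = 1.8e-07). The 10467766 cluster averaged 5.86 ± 0.0221 in Dgcr8 KO cells and 5.02 ± 0.218 in WT cells, a log2 ratio of 0.85 with an interval of 0.61 to 1.08, or 1.80-fold (adjusted p = 0.000172). The gap between the lowest Dgcr8 KO array and the highest WT array was 1.15 on the 10467768 cluster and 0.58 on the 10467766 cluster.

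In Dicer KO cells, by which it was chosen, Loxl4 stood 15.1-fold above WT on the 10467768 cluster, with a mean of 9.98 ± 0.0409 in Dicer KO cells. This log2 ratio of 3.91 (standard error 0.0490) was rank 2 from the top among 23000 clusters. On the 10467766 cluster the mean was 8.34 ± 0.122 and the ratio 3.32 (standard error 0.104), or 10.0-fold, at rank 8. The WT arrays of the 10467766 cluster read 4.89 to 5.27, below WT array medians of 6.52 to 6.56, so its ratios to WT start from a dim level. Measured against Dicer KO cells, Dgcr8 KO cells were 6.43-fold lower on the 10467768 cluster and 5.57-fold lower on the 10467766 cluster, again as a description. On the log2 scale the Dgcr8 KO ratio to WT was 1.23 beside 3.91 for Dicer KO on the 10467768 cluster. On the 10467766 cluster it was 0.85 beside 3.32.

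Loxl1, the member tied to elastic fibres, rose in Dgcr8 KO cells relative to WT. Its log2 levels were 7.08, 6.92 and 6.96 on the Dgcr8 KO arrays, 6.51, 6.63 and 6.55 on the Dicer KO arrays and 6.82, 6.49 and 6.67 on the WT arrays. The Dgcr8 KO arrays overlapped neither other genotype, and the Dicer KO and WT arrays overlapped each other. The mean was 6.98 ± 0.0803 in Dgcr8 KO cells and 6.66 ± 0.167 in WT cells, a log2 ratio of 0.32 (interval 0.13 to 0.51, 1.25-fold, limma adjusted p = 0.0144). This call was lost without Dgcr8 KO replicate 1, where the ratio was 0.28 and the adjusted p 0.0582, and in SAM, the test named in the methods.

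Compared directly, Loxl1 of Dgcr8 KO cells exceeded that of Dicer KO cells 1.34-fold, with means of 6.98 ± 0.0803 in Dgcr8 KO cells and 6.56 ± 0.0609 in Dicer KO cells. The log2 ratio was 0.42 (interval 0.23 to 0.61, adjusted p = 0.00565), and the adjusted p ran between 0.00126 and 0.0265 over the alternatives. Against WT, Dicer KO cells had a Loxl1 ratio of -0.10 with an interval of -0.29 to 0.09, and the arrays overlapped.

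In the comparisons tested, Dgcr8 KO against WT and against Dicer KO, none of the other members was called. The Loxl2/Gm21451 cluster read 6.86, 6.84 and 6.90 in Dgcr8 KO cells, 6.80, 6.48 and 6.82 in Dicer KO cells and 6.93, 6.86 and 6.99 in WT cells. Its log2 ratio was -0.06 in Dgcr8 KO against WT (interval -0.26 to 0.13, adjusted p = 0.668) and 0.16 in Dgcr8 KO against Dicer KO (interval -0.03 to 0.36, adjusted p = 0.206). All 3 Dicer KO arrays were below both other genotypes, by a gap of only 0.02 to Dgcr8 KO and 0.04 to WT, and Dicer KO replicate 2 lay furthest down. The ratio of Dicer KO to WT, not tested, was -0.23 with an interval of -0.42 to -0.03, and -0.12 without that array, where the ratio of Dgcr8 KO to Dicer KO was 0.06 (adjusted p = 0.575).

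Loxl3, a lysyl oxidase needed for palate and cartilage formation in the mouse, read 6.51, 6.13 and 6.21 in Dgcr8 KO cells, 6.28, 6.37 and 6.18 in Dicer KO cells and 6.67, 6.39 and 6.37 in WT cells. Both knockouts had lower means than WT, with overlapping arrays in Dgcr8 KO cells, and in Dicer KO cells the highest array equalled the lowest WT array at this precision. The ratio was -0.19 in Dgcr8 KO against WT (interval -0.44 to 0.06, adjusted p = 0.245) and 0.01 in Dgcr8 KO against Dicer KO (interval -0.24 to 0.26, adjusted p = 0.963). In Dicer KO against WT it was -0.20, with an interval of -0.45 to 0.05. Single arrays moved the Dgcr8 KO ratio to WT, which was -0.30 without Dgcr8 KO replicate 1 (adjusted p = 0.0537), -0.12 without Dgcr8 KO replicate 2 and -0.10 without WT replicate 1.

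Lox, the founding member (chromosome 18, 52516060 to 52529867 in GRCm38.p6), gave 4.72, 4.75 and 4.75 in Dgcr8 KO cells, 4.75 on all 3 Dicer KO arrays and 4.75, 4.88 and 4.52 in WT cells. Its value was identical in every deposited digit on 6 of the 9 arrays, and its mean lay in the dimmest 25% of the clusters counted, so these arrays give little information on Lox. The log2 ratio was 0.02 in Dgcr8 KO against WT (interval -0.16 to 0.20, adjusted p = 0.878) and -0.01 in Dgcr8 KO against Dicer KO (interval -0.19 to 0.17, adjusted p = 0.954). In Dicer KO against WT it was 0.03, with an interval of -0.15 to 0.21.

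In all, 3 of the 6 clusters (Loxl1 and both of Loxl4) were called higher by limma in Dgcr8 KO than in WT cells (2 by SAM, both of Loxl4) and 0 lower (0 by SAM and at an unadjusted p under 0.05), against 15.7% of the 23000 clusters called higher and 17.3% called lower. In Dgcr8 KO against Dicer KO, 1 of the 4 clusters tested was called higher and 0 lower (0 by SAM and at an unadjusted p under 0.05), against 11.2% and 13.4% of all clusters. The arrays of Dgcr8 KO and WT cells did not overlap for 3 of the 6 clusters, where 40.9% of all clusters did not overlap. They did not overlap for 3 of 6 in Dicer KO against WT, where the background was 48.0%, and for 4 of 6 in Dgcr8 KO against Dicer KO, where it was 42.0%, and nothing is read from the contrasts that chose Loxl4. The median log2 ratio of the 6 clusters, 2 of them of Loxl4, was 0.17 in Dgcr8 KO against WT, beside -0.01 for all clusters. The ratios were 1.23 and 0.85 for Loxl4, 0.32 for Loxl1, 0.02 for Lox, -0.06 for Loxl2/Gm21451 and -0.19 for Loxl3. Because Loxl4 enters with both clusters, the median is not read as a shift of the family.

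The genes whose profile over the 9 arrays was most like that of Loxl4 were searched for among 20034 clusters with 1 named gene, by the root mean square difference of log2 values, each less its own mean. For the 10467768 cluster these were Smc1b, a meiotic cohesin subunit (0.193), Slc13a5, a citrate transporter (0.199), Krt17, a keratin (0.371), Krtdap (0.437) and Dner, a Notch ligand-like receptor (0.473). For the 10467766 cluster they were Krtdap (0.178), Smc1b (0.226), Dner (0.275), Slc13a5 (0.302) and Serpinb9b (0.333), so that 4 of 5 genes were shared. Slc13a5, for example, stood 0.85 above WT in Dgcr8 KO cells and 3.92 above it in Dicer KO cells on the log2 scale, a likeness by which it was chosen. The other members vary little, and their likest genes were Gata1 (0.073), Lhx2 (0.08) and Xirp2 (0.081) for Loxl1, Tcerg1l (0.029), Slc2a10 (0.031) and Plpp7 (0.035) for Loxl2/Gm21451, Prkcq (0.037), Cc2d1b (0.062) and Ccdc162 (0.069) for Loxl3, and Rnf212b (0.024), Zfp248 (0.038) and Cyb5d2 (0.042) for Lox.

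Around Loxl4 (chromosome 19, 42592279 to 42612806 in GRCm38.p6), the 4 nearest measured genes had smaller ratios than Loxl4 in both knockouts. Loxl4 was chosen by its high level in Dicer KO cells, so this is likely for any gene and nothing is read from it. R3hcc1l lies 4 bases beyond the 3′ end of Loxl4 and stood at 0.03 in Dgcr8 KO cells and 0.10 in Dicer KO cells, neither called (adjusted p = 0.667 and 0.145). Pyroxd2 (0.00 in Dgcr8 KO, 0.02 in Dicer KO) and Hps1 (0.05 and 0.08) were not called either, while Crtac1, 159 kb away, rose by 0.48 in Dgcr8 KO cells (adjusted p = 0.00704) and had 0.24 in Dicer KO cells (adjusted p = 0.11). Beside Loxl3 (chromosome 6, 83034205 to 83052566), M1ap, a gene of male meiosis, lies 3895 bases away and rose by 1.25 in Dicer KO cells (adjusted p = 2.07e-06) but had -0.12 in Dgcr8 KO cells (adjusted p = 0.328), a direct difference of -1.37 (adjusted p = 4.22e-06).

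Aup1, also beside Loxl3, rose by 0.23 in Dgcr8 KO cells and 0.34 in Dicer KO cells, and Htra2, which overlaps Loxl3, was at -0.07 in both. Near Loxl1 (chromosome 9, 58287723 to 58313212), Stoml1 fell by 0.37 in Dgcr8 KO cells and 0.51 in Dicer KO cells and Pml, the scaffold of nuclear bodies, fell by 0.56 and 0.54. The nearest measured genes to Loxl2 (chromosome 14, 69608692 to 69695834) were R3hcc1, 1.47 kb away (-0.08 in Dgcr8 KO cells, -0.13 in Dicer KO cells), and Chmp7, 21.1 kb away (0.15 and 0.14), and none of these values was called. Entpd4, a Golgi nucleotidase 242 kb from Loxl2, rose by 0.94 in Dgcr8 KO cells and 1.09 in Dicer KO cells. Srfbp1, 24.1 kb from Lox, fell by 0.43 and 0.34. Of 20 neighbours, 3 were called higher and 3 lower in each knockout against WT, shares close to those of all clusters.

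Genes that deliver copper, the metal that lysyl oxidases need, changed in both directions. Of 14 measured genes, 4 rose (2 by SAM) and 4 fell in Dgcr8 KO cells against WT, where 15.7% of all clusters were called higher and 17.3% lower. In Dicer KO cells 7 rose and 3 fell, where 17.8% of all clusters were called higher and 19.1% lower. Atp7a, the pump that loads copper into secreted enzymes, rose by 0.78 ± 0.0649 (standard error) in Dgcr8 KO cells and 1.00 ± 0.0649 in Dicer KO cells (adjusted p = 1.42e-05 and 2.16e-06). Atox1, the chaperone that hands copper to Atp7a, fell by 1.18 ± 0.0535 in Dgcr8 KO cells and 0.31 ± 0.0535 in Dicer KO cells (adjusted p = 3.87e-07 and 0.00123). The metalloreductase Steap2 fell by 1.10 in Dgcr8 KO cells and 1.09 in Dicer KO cells.

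In the direct comparison 9 of the 14 copper genes were called lower for Dgcr8 KO against Dicer KO and 1 (Atp7b) higher. Of all clusters, 13.4% were called lower and 11.2% higher. The median log2 ratio of the copper genes was -0.24, beside 0.03 for all clusters. In order of size the lower ones were Atox1 at -0.86 (adjusted p = 5.96e-06), Slc31a1, the copper importer, at -0.51 (adjusted p = 0.00932), Cox17, which carries copper to mitochondria, at -0.46 (adjusted p = 0.00916), Mt1, a metallothionein, at -0.44, Slc31a2 at -0.39, Sco1 at -0.33, Mt2 at -0.27, Atp7a at -0.22 and Ccs at -0.21. Against WT, Cox17 fell by 0.60 in Dgcr8 KO cells. Of the other copper amine oxidases, Aoc1, Aoc2 and Aoc3, limma and SAM called 0 in each of the 3 comparisons, with 1 lower at an unadjusted p under 0.05 in each knockout against WT and 0 in Dgcr8 KO against Dicer KO.

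Enzymes that prepare collagen before crosslinking moved in both directions. Of 16 measured, 8 rose and 4 fell in Dgcr8 KO cells, beside 15.7% and 17.3% of all clusters. In Dicer KO cells 7 rose and 3 fell, beside 17.8% and 19.1% of all clusters. The count of those that fell in Dgcr8 KO cells was 0 to 4 over the alternatives and 0 without Dgcr8 KO replicate 1 or 3 or WT replicate 2 or 3. The prolyl 3-hydroxylation partner Crtap rose by 1.17 in Dgcr8 KO cells and 1.10 in Dicer KO cells, P3h4 by 0.94 and 1.02, and the lysyl hydroxylase Plod3 by 0.56 and 1.01 (adjusted p between 1.35e-06 and 0.000147 for these 3). P4ha1, a prolyl 4-hydroxylase subunit, rose by 0.37 and 0.76, and P3h1 by 0.73 and 0.50. Of the same enzyme families, Plod1 fell by 0.16 in Dgcr8 KO cells and 0.58 in Dicer KO cells and P3h2 by 0.27 and 0.35, Plod2 fell by 0.32 in Dgcr8 KO cells, and P4ha2 fell by 0.51 in Dicer KO cells.

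**Figure D1:**
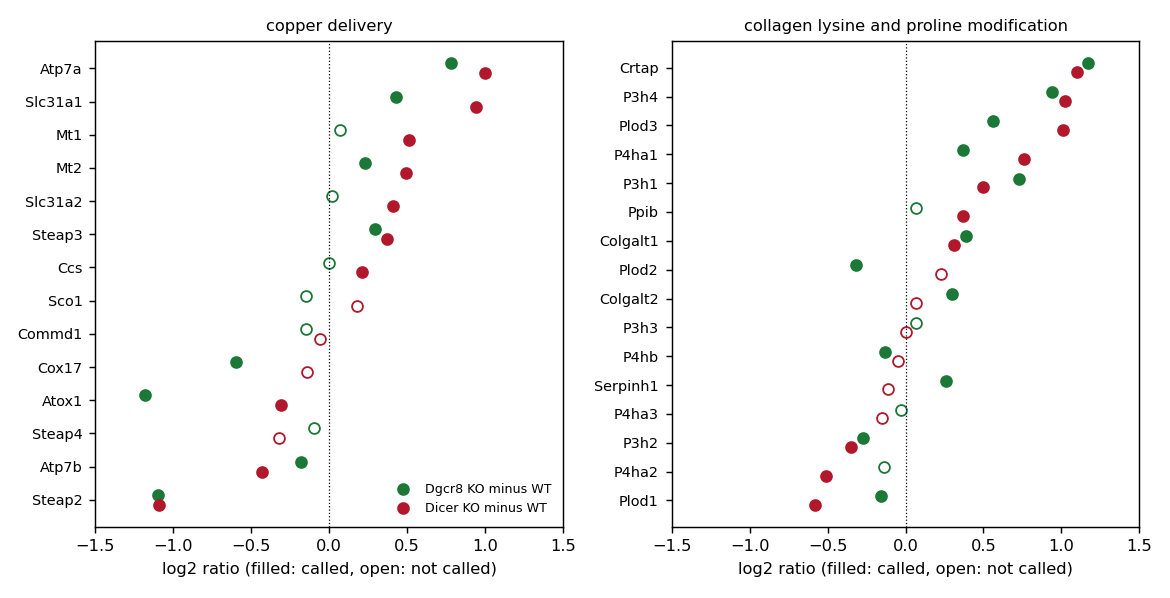
Log2 ratio to WT (x axis) of the measured copper delivery genes (left) and collagen-modifying genes (right), with Dgcr8 KO and Dicer KO as green and red points, filled where called and open where not. Atox1 sits at -1.18 in Dgcr8 KO cells and -0.31 in Dicer KO cells, and Crtap lies above 1 in both.

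Few of the substrates were called. Their mean WT levels ran from 5.65 (Col5a2) to 7.69 (Col4a1), beside WT array medians of 6.52 to 6.56. Whether low levels limited the calls was not tested. Of all clusters, 15.7% were called higher and 17.3% lower in Dgcr8 KO cells, and 17.8% and 19.1% in Dicer KO cells. Of 18 fibrillar collagens, type IV collagens and elastin, 0 were called in Dgcr8 KO cells against WT by limma or SAM, 0 had an unadjusted p under 0.05, and 2 were called higher without WT replicate 1 and Dgcr8 KO replicate 2. In Dicer KO cells Col4a2 (0.28) and Col4a1 (0.16), chains of basement membrane collagen, rose and Col5a1 fell by 0.26. The adjusted p of Col5a1 was 0.0487, and 0 substrates were called lower by SAM or without any 1 of 6 arrays (Dgcr8 KO replicates 1 to 3, Dicer KO replicates 1 and 2, WT replicate 1), while the count that rose was 1 without Dicer KO replicate 2 or 3 or WT replicate 2. Among 14 elastic fibre genes, 3 rose and 1 fell in Dgcr8 KO cells, and 1 rose and 4 fell in Dicer KO cells, of which 2 fell without WT replicate 2. Fbln1, a fibulin, rose by 0.96 in Dgcr8 KO cells and 0.73 in Dicer KO cells, while Ltbp4 fell by 0.38 in Dgcr8 KO cells and Ltbp1 fell by 0.60 in Dicer KO cells, both latent TGF-beta binding proteins. Efemp1 (0.52) and Mfap5 (0.46) rose in Dgcr8 KO cells, and Mfap4 (-0.43) and Emilin2 (-0.18) fell in Dicer KO cells.

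Among 11 genes for propeptide cleavage and matrix anchoring, 4 rose and 2 fell in Dgcr8 KO cells, beside 15.7% and 17.3% of all clusters. In Dicer KO cells 3 rose and 2 fell, beside 17.8% and 19.1% of all clusters, and 1 fell without Dicer KO replicate 2 or 3 or WT replicate 3. Bmp1, the protease that removes the Lox and Loxl1 propeptides, fell by 0.38 in Dgcr8 KO cells and 0.31 in Dicer KO cells (adjusted p = 0.000782 and 0.00281). Pcolce2 (1.08 and 1.28) and Pcolce (0.16 and 0.73), enhancers of procollagen cleavage, rose. Thbs1 fell by 0.92 in Dgcr8 KO cells, and Fn1, fibronectin, rose by 0.54 in Dgcr8 KO cells and 0.20 in Dicer KO cells. Adamts14 rose by 0.43 in Dgcr8 KO cells but fell by 0.18 in Dicer KO cells.

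Of 17 hypoxia, TGF-beta and Snail family regulators, 6 rose and 2 fell in Dgcr8 KO cells, beside 15.7% and 17.3% of all clusters. In Dicer KO cells 5 rose and 3 fell, beside 17.8% and 19.1% of all clusters. The count that fell in Dicer KO cells was 0 to 3 over the alternatives and 1 without Dgcr8 KO replicate 1 or 3, Dicer KO replicate 1 or 2 or WT replicate 1. Zeb1, a repressor of epithelial genes, rose by 1.33 ± 0.0714 in Dgcr8 KO cells (adjusted p = 9.87e-07) and was 1.21 higher than in Dicer KO cells (adjusted p = 4.43e-06). Smad3, which carries the TGF-beta signal, rose by 0.57 in Dgcr8 KO cells and 0.73 in Dicer KO cells, and Tgfbr1 by 0.67 and 0.78. Epas1, a hypoxia-inducible factor subunit, rose by 0.69 in Dgcr8 KO cells, and Tgfb1 fell by 0.60 there.

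ES markers were high throughout, with a summed level (log2) of 15.33 to 15.35 in Dgcr8 KO cells, 15.44 to 15.45 in Dicer KO cells and 15.09 to 15.14 in WT cells, and 6 of 10 rose in each knockout. Of the others, Utf1 fell by 0.45 in Dgcr8 KO cells and by 0.51 in Dicer KO cells, and Sall4 fell by 0.26 in Dicer KO cells. For this and the other marker lists, the shares of all clusters called were 15.7% higher and 17.3% lower in Dgcr8 KO cells. In Dicer KO cells they were 17.8% and 19.1%. Both the ES and the endoderm marker sums ran in the same order as Loxl4. The endoderm sum was 12.18 to 12.20 in Dgcr8 KO cells, 12.55 to 12.60 in Dicer KO cells and 11.89 to 11.96 in WT cells. In the endoderm list 2 of 12 genes rose in each knockout (1 in Dicer KO cells without Dicer KO replicate 2 or 3 or WT replicate 2). In the same list 2 fell in Dgcr8 KO cells and 3 fell in Dicer KO cells. Sparc rose by 1.02 in Dgcr8 KO cells and 1.69 in Dicer KO cells, while Lamb1 fell by 1.00 and 1.23 and Dab2 by 1.13 and 1.15. Whether endoderm cells were present, and any part of them in the Loxl4 result, was not tested. Of 12 fibroblast markers, limma and SAM called 0 in Dgcr8 KO cells (0 at an unadjusted p under 0.05), and 2, led by Mmp2, fell in Dicer KO cells, or 1 without any 1 of 5 arrays. Their sum was 9.82 to 10.01 in Dgcr8 KO cells, 9.68 to 9.81 in Dicer KO cells and 9.89 to 10.08 in WT cells. Of 10 trophoblast markers, 4 fell in Dgcr8 KO cells, or 2 without Dgcr8 KO replicate 1 or 2, and 2 rose and 1 fell in Dicer KO cells, or 2 fell without WT replicate 2. In bulk RNA, fewer cells of a type and less RNA per cell cannot be told apart.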

How the data were processed

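RNA of Dgcr8 KO, Dicer KO and WT ES cells was measured on 9 one-colour Affymetrix arrays, 3 per genotype. The authors deposited normalized log2 values, used here as given. The methods name RMA and the processing notes name GCRMA, with versions not given in the sources used here, and the number of arrays limits the precision. Of 35557 clusters, those without a symbol (12147), with only miRNA genes (326), mitochondrial (6) or Y-linked (78) were left out, leaving 23000. The platform annotation gave symbols, and RefSeq (GRCm38.p6) gave positions.

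In limma 3.58.1 under R 4.3.3, lmFit estimated the mean of each genotype from the 9 arrays together and eBayes gave the tests, with Benjamini-Hochberg adjustment over all 23000 clusters and calls at an adjusted p under 0.05. Members, lists and tests were chosen with earlier results of these data known. Lists were counted with no set test, so no list is said to differ from all clusters. Named were all members, Dgcr8 and Dicer1, called neighbours among the 2 nearest measured genes on each side, and the 5 (Loxl4) or 3 (other members) likest genes. From each list and knockout, names were taken from the up to 4 called genes with the smallest adjusted p, not always all of them. Plod3, P4ha1, P3h1, Pcolce, Bmp1, Tgfbr1, Slc31a1, Slc31a2, Sco1, Ccs, Atp7b, Plod1, Plod2, P3h2, P4ha2, Sall4, Htra2, R3hcc1, Chmp7, R3hcc1l, Pyroxd2, Hps1 and the Aoc genes were named in some contrasts after their values were seen.

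SAM, the methods' test, was written anew from its description and run at a false discovery rate of 5%, with all 20 label permutations of a pair of genotypes. It divides each ratio by its standard error plus a constant. That constant was 0.741 in Dgcr8 KO against WT, 0.469 in Dicer KO against WT and 0.162 in Dgcr8 KO against Dicer KO. The limma standard error of Loxl1 was 0.0841, so in Dgcr8 KO against WT SAM weighed mostly the size of the ratio. There, 0 calls by SAM say little about small ratios. In all 19 alternatives were planned (SAM, the arrays and clusters in the fit, the normalization, the variance model, array weights, a replicate block and each array left out in turn), and 1, without WT replicate 1 and Dgcr8 KO replicate 2, was chosen after seeing the data, because these arrays lay at the ends of the leading component of the replicate spread (40.8% of it). Scripts were tested on simulated data.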

Additional observations from a re-analysis of the deposited data

Results flagged for a closer look

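Loxl1 responded differently in the knockouts: on the log2 scale it stood 0.32 above WT in Dgcr8 KO cells, against a ratio to WT of -0.10 for Dicer KO cells. The difference, tested directly as Dgcr8 KO minus Dicer KO with limma, was 0.42 (adjusted p = 0.00565), with all 3 Dgcr8 KO arrays above all 3 Dicer KO arrays.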

How the results depend on the processing

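Of 18 member results (6 clusters in 3 comparisons), 17 kept their side of the threshold, or moved by less than the replicate spread where untested, under every planned and added alternative that gave a value. The exception was Loxl1 in Dgcr8 KO against WT: by SAM it stayed at 0.32 and was no longer called, and leaving out 1 array at a time gave 0.24 to 0.40, with the call lost without Dgcr8 KO replicate 1 (0.28). Without WT replicate 1 and Dgcr8 KO replicate 2 it was 0.43. The cause was not tested. Lox had no value without the dimmest 25% of clusters. By SAM, 2232 clusters fell in Dgcr8 KO against WT (3976 by limma) and 4494 were higher in Dgcr8 KO against Dicer KO (2574 by limma).

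With a replicate block, Loxl1 in Dgcr8 KO against WT stayed at 0.32 (adjusted p = 0.0191), no member call changed, and 3613 clusters rose and 3926 fell in that comparison, against 3615 and 3976 without it. Arrays share only a number: same-numbered arrays correlated between -0.20 and 0.34 in their deviations, and 4 of 9 correlated best with their own number.

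Of 66 list counts, 40 stayed within 1.5 times the limma count everywhere. Others not given above ranged as follows, in Dgcr8 KO against WT: regulators that fell 1 to 2 (2 by limma), Aoc genes that fell 0 to 1 (0). In Dicer KO against WT, Aoc genes that fell 0 to 1 (0) and fibroblast markers that rose 0 to 1 (0). In Dgcr8 KO against Dicer KO, substrates higher 0 to 4 (2) and lower 0 to 1 (1), elastic fibre genes higher 3 to 7 (5), copper genes higher 0 to 1 (1), regulators lower 3 to 6 (5), Aoc genes lower 0 to 1 (0), fibroblast markers higher 1 to 3 (2) and lower 0 to 2 (0), endoderm markers higher 1 to 3 (3) and trophoblast markers lower 2 to 6 (3).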
